A study of Bos taurus with 2 samples.

Results

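The adipogenic transcription factors are the 10 genes PPARG, CEBPA, CEBPB, CEBPD, ZNF423, EBF1, EBF2, KLF4, KLF5 and KLF15, chosen by name for their established place in fat cell formation. Earlier results of these data were known when they were chosen, and the study had already reported PPARG and ZNF423 mRNA as enriched in its cell cluster 9. Of the 21867 genes in the deposited feature list, 9 of these 10 had a row, and CEBPA, which had none under that symbol, was not analysed here. The cells were isolated as satellite cells, the muscle stem cells that lie against the muscle fiber, from skeletal muscle of 1 male Holstein calf at the age of 2 weeks. They were grown for a week in DMEM with 10% fetal bovine serum and given no treatment. Both single-cell RNA sequencing libraries, called replicates 1 and 2 here, came from these same cells, so all comparisons are between clusters of cells that share 1 calf, 1 culture and 1 medium. The 19096 cells fall into 15 clusters, which the study grouped into 7 myogenic clusters (1, 2, 3, 4, 5, 8 and 12), clusters 7 and 9 with PDGFRA mRNA, and 6 clusters of undetermined identity.

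Fat cells arise in a cascade of transcription factors. CEBPB and CEBPD, members of the CCAAT/enhancer-binding protein family, are induced early by adipogenic hormones and activate CEBPA and PPARG, the nuclear receptor that is the master regulator of adipocyte differentiation. ZNF423 and the early B cell factors EBF1 and EBF2 act before PPARG and mark committed preadipocytes, with EBF2 best known from brown and beige fat precursors. Among the Krüppel-like factors, KLF4 acts on CEBPB, KLF5 on PPARG, and KLF15 late in differentiation, while KLF4 and KLF5 also work in many other cells, muscle precursors among them. In skeletal muscle these programs are known from fibro-adipogenic progenitors, the PDGFRA-bearing mesenchymal cells that give rise to intramuscular fat.

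The libraries held 145631299 and 137818568 unique molecular identifiers (UMIs, each counting 1 captured mRNA molecule), in 9939 and 9157 cells. Depth differed between clusters, with a median of 23011 UMIs per cell in the 1080 cells of cluster 9, the deepest, 1389 in the 1298 cells of cluster 7 and 647 in the 317 cells of cluster 15. Levels are therefore given as UMIs per 10000 UMIs of a cluster in a library, and levels of different genes are not compared, since a 3′ count depends on the gene. Of the 8 fibro-adipogenic progenitor markers tested in cluster 9 against all other cells, PDGFRA, PDGFRB and DCN were called higher, COL1A1, COL3A1 and THY1 lower, and LUM and CD34 were not called, whereas all 7 myogenic markers tested were called lower. The clusters are called by their numbers for this reason. Clusters were made on the same counts that were tested, and the libraries hold different cells of 1 culture. A p-value here therefore measures the spread between 2 libraries of that culture. It is not independent evidence that a cluster exists or that calves would differ likewise.

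PPARG was highest in cluster 9. Its level there was 0.299 UMIs per 10000 UMIs in replicate 1 and 0.276 in replicate 2, and in all other cells together it was 0.0192 and 0.0197. Cluster 9 held 5.66% of the cells and 9.31% of all UMIs, but 761 of the 1260 PPARG UMIs, or 60.4%. Cluster 7 came second at 0.0669 and 0.107, a range that overlapped that of cluster 10 at 0.0486 and 0.0930. Cluster 8, at 0.0393 and 0.0430, stood apart from cluster 11, the next lower one, and the ranges of clusters 11, 4 and 5 overlapped one after the other. In clusters 1, 2, 3, 6 and 12 every library was at or under 0.0162, and in cluster 13 no PPARG UMI was counted, which at 994870 UMIs allows a level of up to 0.0302.

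EBF2 followed a similar order at the top and fell off more steeply. It stood at 0.373 and 0.350 UMIs per 10000 UMIs in cluster 9, at 0.123 and 0.148 in cluster 7 and at 0.0649 and 0.0758 in cluster 10, and the library ranges of these 3 clusters did not overlap. Cluster 9 held 955 of its 1193 UMIs. Every other library sum of EBF2 was at or under 0.0237. Clusters 14 and 15 held no EBF2 UMI, where a count of 0 allows up to 0.0218 and 0.137. In clusters 4, 5 and 8, which the study identified as satellite cells from their PAX7 or PAX3 mRNA, EBF2 lay between 0.0055 and 0.0108.

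EBF1, the other early B cell factor, was counted 100 times in all cells, 76 of them in cluster 9. Its level was 0.0282 and 0.0295 UMIs per 10000 UMIs in cluster 9 and 0.0223 and 0.0164 in cluster 7, ranges that did not overlap, although the value of cluster 7 rests on 4 UMIs. Clusters 3, 12, 13 and 15 held no EBF1 UMI. A count of 0 allows up to 0.00085 in cluster 3 and 0.0024 in cluster 12. In clusters 13 and 15 it allows up to 0.0302 and 0.137, above the level of cluster 9.

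ZNF423, a zinc finger protein that marks preadipocytes, was spread over more clusters. Its level was 0.115 and 0.135 UMIs per 10000 UMIs in cluster 9, 0.112 and 0.0902 in cluster 7 and 0.104 and 0.0943 in cluster 12, the cluster of differentiated myocytes. The ranges of clusters 9 and 7 did not overlap, although they nearly touched and the value of cluster 7 rests on 21 UMIs. Those of clusters 7, 12, 15, 10, 8, 14 and 1 did, each with the next. The lowest mean, 0.0344, was in cluster 11. Cluster 9 held 327 of the 1535 ZNF423 UMIs, a share of 21.3%.

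**Figure D1:**
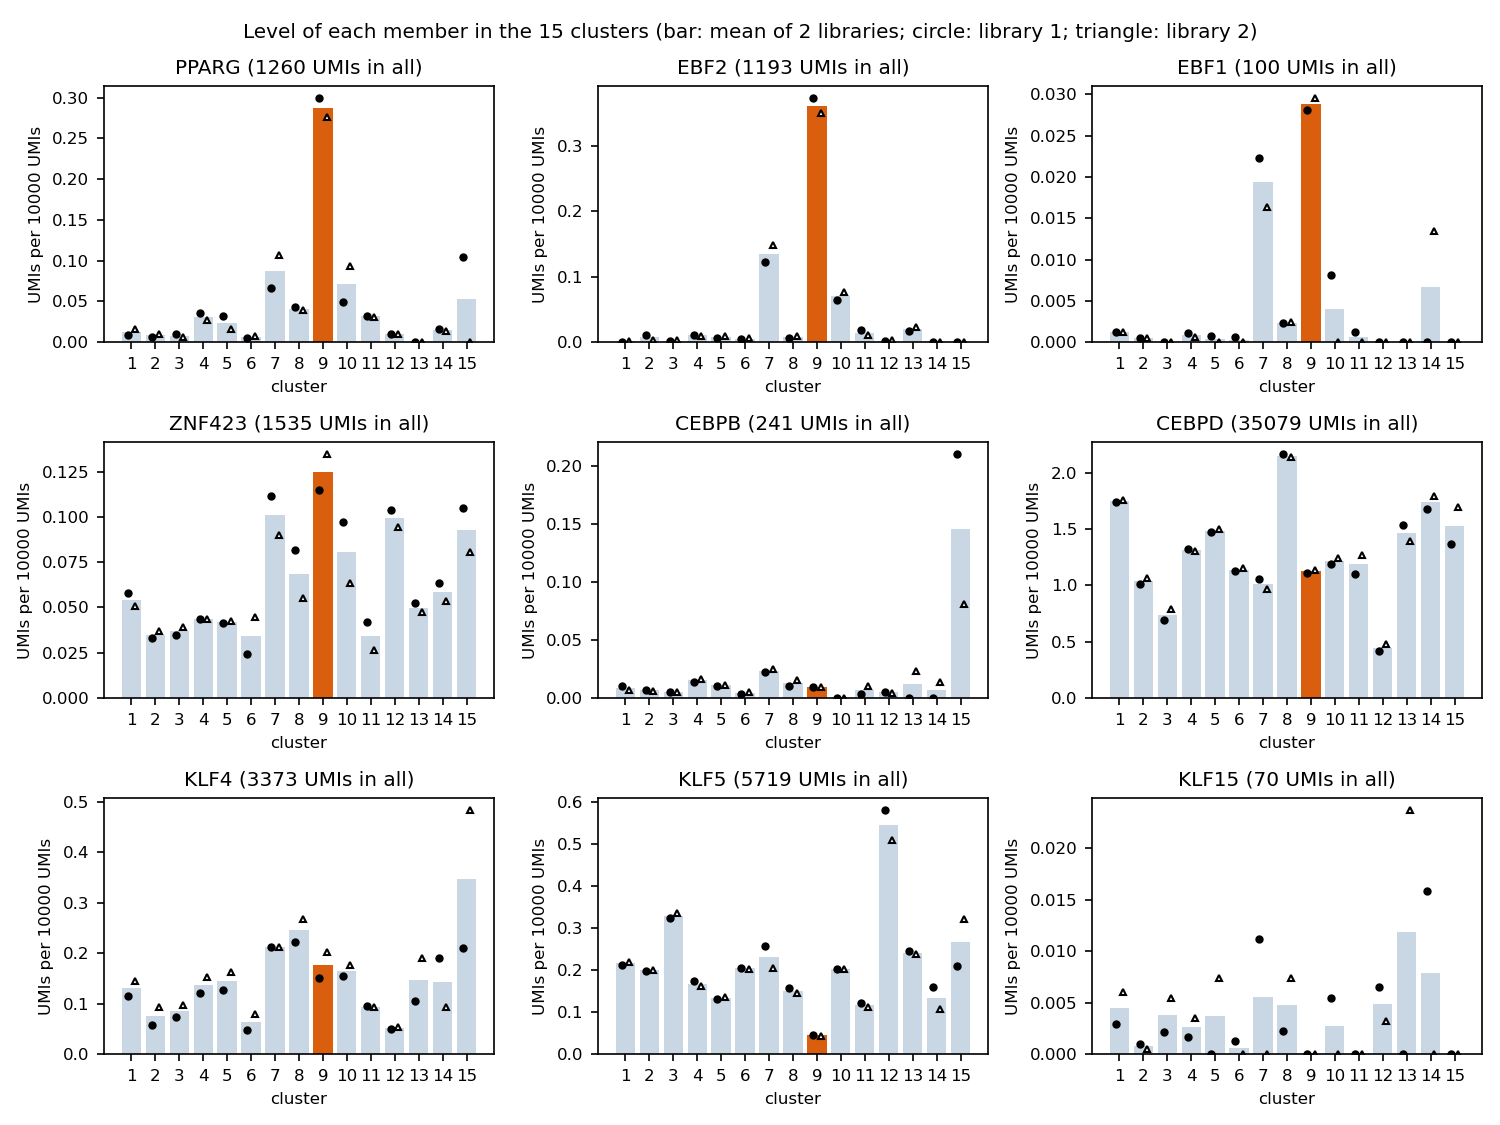
Level of the 9 measured members in each of the 15 clusters, in UMIs per 10000 UMIs of the cluster, with a panel and a linear scale of its own for each gene. Bars are means of 2 libraries, circles replicate 1 and triangles replicate 2. Cluster 9, in orange, has the tallest bar for PPARG, EBF2, EBF1 and ZNF423 and the shortest of the bars above 0 for KLF5.

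The C/EBP members did not share this pattern. CEBPD, an early adipogenic factor that is also induced by stress and glucocorticoids, was counted 35079 times, with UMIs in every cluster, of which cluster 15 held 34. It was highest in cluster 8, one of the PAX3 satellite cell clusters, at 2.17 and 2.14 UMIs per 10000 UMIs, followed by cluster 1 at 1.74 and 1.76, and lowest in the myocyte clusters 3, at 0.693 and 0.791, and 12, at 0.418 and 0.476. Cluster 9, at 1.11 and 1.14, ranked eleventh of the clusters, and its range overlapped that of cluster 6. CEBPB was counted 241 times. It stood at 0.0092 and 0.0098 UMIs per 10000 UMIs in cluster 9, from 25 UMIs, and at 0.0223 and 0.0246 in cluster 7, from only 5 UMIs. Its highest mean, in cluster 15, came from 3 UMIs.

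KLF5, which takes part in both adipogenesis and muscle regeneration, was lowest in cluster 9. There it stood at 0.0451 and 0.0435 UMIs per 10000 UMIs, against 0.581 and 0.510 in cluster 12 and 0.323 and 0.335 in cluster 3. The library ranges of clusters 12, 3 and 15 did not overlap from one to the next. Those of clusters 3 and 15 nearly touched, and the value of cluster 15 rests on 6 UMIs. Cluster 9 stood apart from cluster 11, the next lowest, at 0.121 and 0.111. Only 117 of the 5719 KLF5 UMIs, or 2.05%, were in cluster 9.

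KLF4, an early adipogenic factor also known for its role in stem cells, had its highest mean in cluster 15, from 8 UMIs, followed by cluster 8 at 0.223 and 0.267 UMIs per 10000 UMIs. Cluster 7 came next, between 0.212 and 0.213 from 45 UMIs. Cluster 9 stood lower than cluster 7 in both libraries, at 0.150 and 0.202, and its range overlapped that of cluster 10. KLF4 was higher in replicate 2 than in replicate 1 over all cells, at 0.134 against 0.104. KLF15 was counted 70 times, 63 of them in the 7 myogenic clusters together, which held 11923 of the 19096 cells, and none in cluster 9. At the depth of cluster 9 a count of 0 allows 3 UMIs over both libraries, or 0.0011 UMIs per 10000 UMIs, so KLF15 was at least 2.39-fold lower there than in all other cells. Clusters 11 and 15 held no KLF15 UMI either, where a count of 0 allows up to 0.0019 and 0.137.

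Against all other cells, 5 of the 9 members tested were called higher in cluster 9 and 3 lower (edgeR's quasi-likelihood test, Benjamini-Hochberg adjusted p under 0.05 over 13205 genes), where 25.3% of all genes tested were called higher and 27.7% lower. With the library as a block the members' counts were the same, beside 30.3% and 33.3% of all genes. The median log2 fold change was 0.59 over the 9 members and −0.04 over all genes tested. EBF2 had the largest difference, a log2 fold change of 5.25 ± 0.08 (SE, 2 sums against 2; edgeR adjusted p = 1.08e-06), followed by EBF1 with 4.89 ± 0.33 (edgeR adjusted p = 6.81e-05) and PPARG with 3.85 ± 0.08 (edgeR adjusted p = 1.56e-06), the last a 14.5-fold difference. ZNF423 was higher by 1.37 ± 0.11 (edgeR adjusted p = 1.51e-04) and KLF4 by 0.59 ± 0.17 (edgeR adjusted p = 0.0251). KLF5 was lower, with a log2 fold change of −2.33 ± 0.08 (edgeR adjusted p = 6.38e-06), as was CEBPD with −0.19 ± 0.05 (edgeR adjusted p = 0.0144), and KLF15 was called lower at its count of 0 (edgeR adjusted p = 0.0323). CEBPB, at 0.14 ± 0.25, was not called. KLF15 was not called without a filter on low counts (edgeR adjusted p = 0.0599), with DESeq2 (adjusted p = 0.0598) or in 1 fit of all 30 sums (edgeR adjusted p = 1). Without the filter KLF4 was no longer called (edgeR adjusted p = 0.0659), and in 1 fit of all 30 library sums against the mean of the other clusters CEBPD was not (edgeR adjusted p = 0.209). That fit called 34% of all genes higher and 17.7% lower.

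In the comparison with the 7 myogenic clusters alone, 4 of 9 members were called higher and 2 lower, where 28.9% and 27.6% of 12941 genes were. EBF2, EBF1, PPARG and ZNF423 were higher by 5.97 ± 0.09, 5.28 ± 0.29, 3.99 ± 0.10 and 1.35 ± 0.11 on the log2 scale, and KLF5 and CEBPD were lower, with −2.39 ± 0.07 and −0.20 ± 0.04. With the library as a block, KLF4 at 0.53 was also called higher (edgeR adjusted p = 2.02e-05, against 0.0513 without the block) and KLF15 lower (edgeR adjusted p = 0.0041, against 0.0562), while 33.4% and 32.5% of all genes were called higher and lower.

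Cluster 7 also carries PDGFRA mRNA, and the comparison with it asks which members set the 2 clusters apart. PPARG, EBF2, ZNF423 and CEBPD were called higher in cluster 9 and KLF5 lower, 4 and 1 of the 8 members tested, where 29.9% and 26.6% of 10785 genes were, and 29.8% and 26.3% with the library as a block. PPARG had a log2 fold change of 2.19 ± 0.25 (edgeR adjusted p = 2.86e-04) and EBF2 of 1.90 ± 0.20 (edgeR adjusted p = 1.78e-04). KLF5 had −1.85 ± 0.25 (edgeR adjusted p = 5.78e-04). CEBPD was higher by 0.66 ± 0.11 (edgeR adjusted p = 0.0016) and ZNF423 by 0.83 ± 0.27 (edgeR adjusted p = 0.0338), and EBF1, at 1.10 ± 0.51, KLF4 and CEBPB were not called. Without TMM scaling the median of all genes moved from 0.05 to −0.46 and 17.7% of all genes were called higher and 42.5% lower. CEBPD then stood at 0.15 (edgeR adjusted p = 0.285), ZNF423 at 0.32 (edgeR adjusted p = 0.38), and the sign of KLF4, which was not called, turned from 0.23 to −0.28. By level KLF4 was lower in cluster 9, at 0.150 and 0.202, than in cluster 7, between 0.212 and 0.213. ZNF423 also missed the threshold with DESeq2 (adjusted p = 0.178), without cells under 2000 UMIs (edgeR adjusted p = 0.283) and after reclustering (edgeR adjusted p = 0.068).

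**Figure D2:**
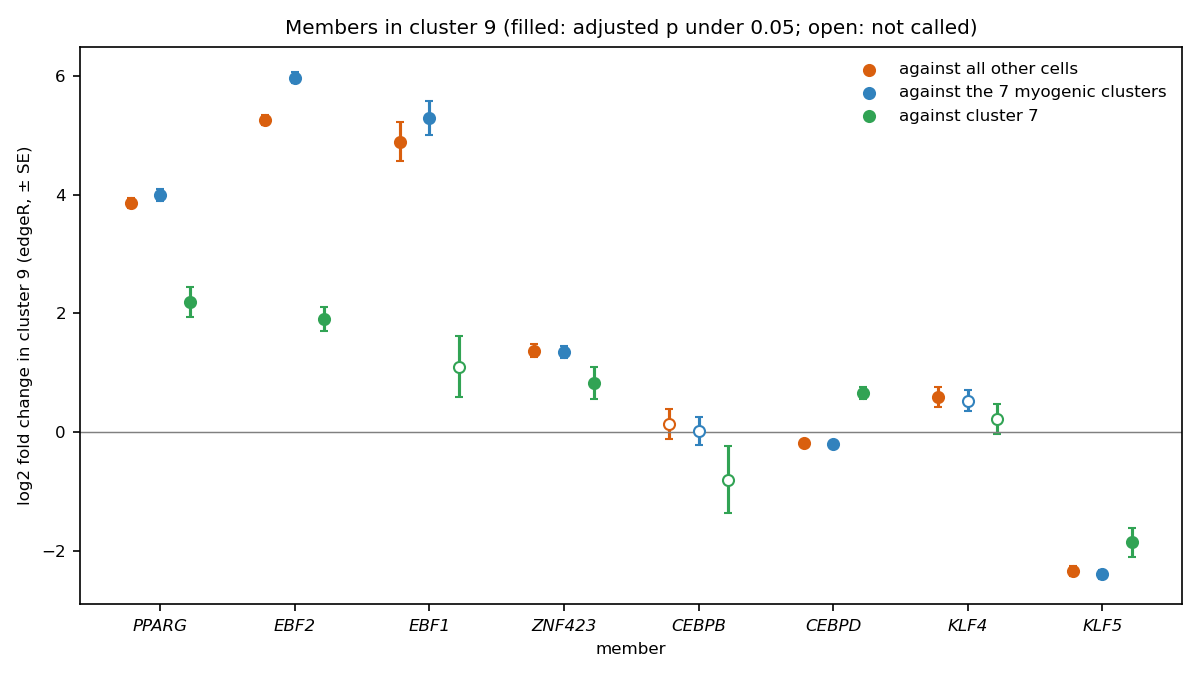
Log2 fold change in cluster 9 of the 8 members with a UMI there, against all other cells, the 7 myogenic clusters and cluster 7, with the standard error as bars; filled points had an adjusted p under 0.05 in edgeR. EBF2, EBF1 and PPARG lie above 3.8 against both larger groups of cells and between 1.1 and 2.2 against cluster 7, and KLF5 lies below −1.8 in all 3 comparisons.

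Over the 15 clusters, each against all other cells, 17 of 135 pairs of member and cluster (12.6%) were called higher and 43 (31.9%) lower, where 14.9% and 17.1% of all pairs of gene and cluster were. Each cluster is part of the cells that the others are compared with, so these pairs are not independent. With the library as a block 25 pairs were called higher and 56 lower, beside 20.2% and 22.2% of all pairs, and in 1 fit of all 30 sums 24 and 16 were, beside 22.8% and 12.6%. The share of all genes called higher ran from 0.039% in cluster 15, 3.73% in cluster 14 and 5.98% in cluster 13 to 25.3% in cluster 9, and was 14.6%, 24.5%, 16.3% and 18.3% for clusters 1, 3, 4 and 7 and 22.5%, 16.7% and 24.8% for clusters 8, 10 and 12. The share called lower ran from 0.234% in cluster 15 and 4.07% in cluster 14 to 29.5% in cluster 12, and was 18.8%, 25.4% and 9.48% for clusters 1, 3 and 6 and 26.4%, 23.5% and 21.9% for clusters 7, 8 and 10. EBF2 was called higher in clusters 7, 9 and 10 and lower in 9 clusters. PPARG was called higher in cluster 9 and lower in 8 clusters. These lower calls are relative to cells that include cluster 9, which held most UMIs of both genes. In clusters 4 and 11, both called lower, the mean PPARG level was 0.0311 and 0.0314, against 0.0194 in all cells outside cluster 9. For EBF2 it was 0.0104 and 0.0146 there, against 0.0093. In the other clusters called lower, the mean levels were below those outside cluster 9. For EBF2, the library values of clusters 2 and 8 lay on both sides of 0.0093, at 0.0036 to 0.0105 and 0.0068 to 0.0098. For PPARG, the count of 0 in cluster 13 allows a level of up to 0.0302, above 0.0194. No direction against the cells outside cluster 9 is read from these calls. In the fit of all 30 sums, against the mean of the other clusters, EBF2 was called higher in 3 clusters and PPARG in 4, and the lower calls of both were lost, as were the 7 of EBF1. With the library as a block PPARG was also called higher in cluster 10, with a log2 fold change of 0.61 (edgeR adjusted p = 0.0168). The main fit did not call it (edgeR adjusted p = 0.136), and 2 of 8 alternatives, the block among them, did. The log2 fold change was −0.08 in replicate 1 alone and 1.08 in replicate 2 alone, so no direction is read from this call. ZNF423 was called higher in clusters 9 and 12, with 1.11 ± 0.13 in cluster 12 (edgeR adjusted p = 5.31e-04). KLF5 was called higher in clusters 1, 3 and 12, with 0.98 ± 0.05 in cluster 3 and 1.73 ± 0.08 in cluster 12 (edgeR adjusted p = 3.81e-05 and 1.38e-05), and lower in 6 clusters. Of these, cluster 7, at −0.47, was called under 2 of 8 alternatives and not with the library as a block (edgeR adjusted p = 0.0905). By level, between 0.205 and 0.257, cluster 7 had rank 5 of the 15 clusters for KLF5. Without TMM the median of all genes in cluster 7 moved from −0.12 to 0.52. No direction is read from the KLF5 call in cluster 7. CEBPD was called higher in clusters 1, 5, 8 and 14, by 0.66, 0.33, 0.92 and 0.59 on the log2 scale, and lower in clusters 2, 3, 7, 9 and 12, where its values ran from −1.33 to −0.19. KLF4 was called higher in clusters 8 and 9, with 1.18 ± 0.16 in cluster 8 (edgeR adjusted p = 0.0025), and lower in clusters 6 and 12, and with the block 6 clusters were called higher and 5 lower. CEBPB was called higher in cluster 4, by 1.01 ± 0.20 (edgeR adjusted p = 0.0167), and lower in cluster 10, where it had no UMI and was at least 2.27-fold lower than in all other cells.

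The share of cells with at least 1 UMI was read after thinning each cell to the same number of UMIs. At 1000 UMIs per cell, 2.41% of the cells of cluster 9 (95% exact binomial interval 1.58 to 3.51) had a PPARG UMI, against 1.29% (0.688 to 2.20) in cluster 7 and 0.168% (0.102 to 0.259) in the 7 myogenic clusters, and EBF2 was seen in 3.43%, 1.19% and 0.0587%. All 1080 cells of cluster 9 entered this share, while 290 cells of cluster 7 were left out as too shallow. At 5000 UMIs per cell the shares in cluster 9 were 13.4% for PPARG, 16.02% for EBF2, 5.09% for ZNF423 and 1.57% for KLF5, and without thinning they were 40.9%, 52.0%, 24.3% and 9.17%. At 5000 UMIs KLF5 was seen in 24.8% of the cells of cluster 12, at a median depth of 19113 UMIs. Intervals cover counting error only.

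Among the myogenic clusters, PPARG was seen more often in clusters 4, 5 and 8, where 1.57% (1.24 to 1.98) of 4636 cells had a UMI at 5000 UMIs per cell, than in clusters 1, 2, 3 and 12, where 0.430% (0.292 to 0.609) of 7214 did. Without thinning the shares were 4.11% and 1.35%, with median depths of 15279.5 and 15464 UMIs. For EBF2 the shares at 5000 UMIs were 0.431% (0.264 to 0.665) and 0.208% (0.116 to 0.343). This grouping follows the study's separation of satellite cells from myoblasts and was taken up after the values had been seen, and no test was run on it.

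**Figure D3:**
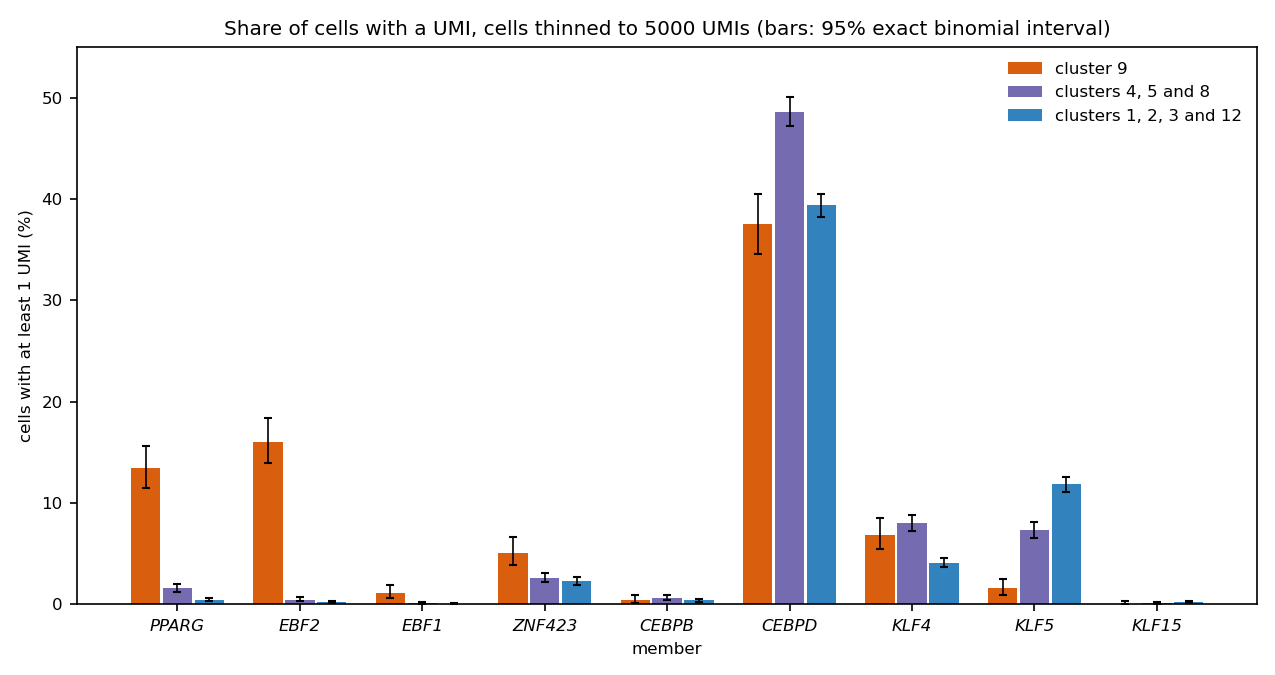
Percent of cells with at least 1 UMI of each member after thinning every cell to 5000 UMIs, in cluster 9, in clusters 4, 5 and 8 and in clusters 1, 2, 3 and 12, with exact 95% binomial intervals. PPARG and EBF2 are seen in 13.4% and 16.02% of the cells of cluster 9 and in under 2% of both other groups, while KLF5 shows the reverse order.

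Within cluster 9 the shares of cells with EBF2 or ZNF423 had overlapping intervals in cells with and without PPARG. In the 1067 cells with at least 10000 UMIs, thinned to that number, 276 had a PPARG UMI, and 29.7% of these (24.4 to 35.5) had an EBF2 UMI, against 27.8% (24.7 to 31.1) of the 791 cells without PPARG. For ZNF423 the shares were 11.2% (7.76 to 15.6) and 9.73% (7.76 to 12.02). Of PPARG, EBF2 and ZNF423, 48.8% of the cells had none at this depth, 38.8% had 1, 11.6% had 2 and 0.75% had all 3. PDGFRA was seen in 73.9% of the cells with PPARG and 73.5% of those without. MYOD1, the myogenic determination factor, was seen in 16.6% (12.5 to 21.2) of cells with EBF2 and 26.01% (22.9 to 29.3) of cells without, and in 18.1% (13.8 to 23.2) of cells with PPARG and 25.2% (22.2 to 28.3) of cells without. The 39 cells of cluster 9 with a KLF5 UMI had MYOD1 in 46.2% (30.1 to 62.8), against 22.5% (19.95 to 25.1) of the other 1028. Doublet scores moved with KLF5 in cluster 9, and to a smaller extent with CEBPD and KLF4. Without thinning, 44 of the 99 cells with a KLF5 UMI (44.4%, 34.5 to 54.8) were among the 8% of all cells with the highest scores, against 11.7% (9.78 to 13.9) of the 981 cells without, at median depths of 29450 and 22449 UMIs. For PPARG these shares were 15.6% (12.4 to 19.3) with and 14.1% (11.5 to 17.1) without, and for EBF2 14.8% (11.9 to 18.0) and 14.7% (11.7 to 18.02). ZNF423 had 19.8% (15.2 to 25.2) with and 13.1% (10.8 to 15.6) without, intervals that overlapped narrowly. The MYOD1 shares were not recomputed without the cells of high score.

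Across the 15 clusters, the gene whose levels were most like those of KLF5 was STK17A (Pearson r = 0.963 of log2 levels), ahead of POPDC3 (0.961) and CAV3 (0.955), the muscle caveolin. KLF4 was most like TNFRSF1A (0.96), EPAS1 (0.918) and STK32C (0.898), CEBPD like CNRIP1 (0.914), CAV1 (0.891) and RARG (0.889), and ZNF423 like L1CAM (0.87), FHL1 (0.865) and TMEM119 (0.845). Over the levels of 1 library the r of RARG with CEBPD was 0.343 in replicate 1 and 0.849 in replicate 2, and that of TMEM119 with ZNF423 was 0.365 and 0.75. With a pseudocount of 0.01 in place of 0.001, MTMR9 (0.886) took the place of RARG for CEBPD, with 0.823 in replicate 1 and 0.381 in replicate 2. For PPARG and EBF2, whose levels are near 0 in most clusters, the choice depended more on the pseudocount. With 0.001 PPARG was most like COBLL1 (0.86), SRPRB (0.834) and LY96 (0.833), and with 0.01 most like BHLHE41 (0.912), ANGPT4 (0.871) and PDGFRA (0.866). By library, in the order of the replicates, r with PPARG was 0.174 and 0.681 for LY96, 0.759 and 0.465 for SRPRB, 0.465 and 0.619 for BHLHE41 and 0.491 and 0.728 for ANGPT4, whereas COBLL1 had 0.835 and 0.802 and PDGFRA 0.86 and 0.833. EBF2 was most like AUP1 (0.93), CDIPT (0.921) and DPYSL3 (0.911) with 0.001, and like IQGAP2 (0.962), ADAMTSL3 (0.955) and CDIPT (0.953) with 0.01. These values describe 15 clusters that share 2 libraries and differ in depth, over 8725 genes with at least 1000 UMIs.

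Of 60 other regulators of adipogenesis listed, 51 were tested in cluster 9 against all other cells, 15 were called higher and 20 lower, where 25.3% and 27.7% of all genes were. Their median log2 fold change was −0.16, beside −0.04 over all genes, and the share called higher was near that of all genes. The largest positive values were those of SFRP2, a secreted modulator of Wnt signaling, with 4.90 ± 0.17, TWIST2 with 3.55 ± 0.19, GATA2, a repressor of PPARG, with 2.66 ± 0.11, and TWIST1 with 2.12 ± 0.06. SFRP2 stood at 1.57 and 1.99 UMIs per 10000 UMIs in cluster 9 and at 0.0499 and 0.0666 in all other cells. The largest negative values were those of DLK1, the preadipocyte factor that blocks differentiation, with −4.47 ± 0.60, the PPARG coactivator PPARGC1A with −2.25 ± 0.16, NCOA1 with −1.65 ± 0.10 and BMP4 with −1.19 ± 0.09. SREBF1, the transcription factor of lipid synthesis, was higher by 1.73 ± 0.07, named here after its value was seen. Among 17 tested relatives of the members, KLF7, an inhibitor of adipocyte differentiation, was called higher, by 0.68 ± 0.13, and 8 were called lower, led by KLF9 with −2.56 ± 0.23, KLF2 with −1.90 ± 0.50 and KLF13 with −0.59 ± 0.15, next to EBF4 with −0.57 ± 0.12. In the comparison with cluster 7, 9 regulators of 45 tested were called higher and 21 lower, and of 12 relatives tested none was called higher and 6 were called lower by edgeR, where 29.9% of all genes were called higher and 26.6% lower. Without TMM, which moved the median of all genes from 0.05 to −0.46, 7 regulators were called higher and 32 lower and 9 relatives lower, beside 17.7% and 42.5% of all genes.

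Of 53 listed genes that PPARG and CEBPA activate in adipocytes, 40 were tested in cluster 9 against all other cells, 12 were called higher and 12 lower, with a median of −0.14. These counts are near the 25.3% and 27.7% of all genes called and are no result about the list. FABP5, a fatty acid binding protein, was higher by 1.82 ± 0.06, RBP4, the retinol carrier, by 1.24 ± 0.05, ACACA, which makes malonyl-CoA for fatty acid synthesis, by 0.96 ± 0.14, and the lipase LPL by 0.76 ± 0.17. PDK4 and the lipid droplet gene CIDEA were lower, with −2.45 ± 0.45 and −1.65 ± 0.12, and PPARGC1A belongs to this list too. FABP4, the adipocyte fatty acid binding protein, fell by 0.90 ± 0.22 on the log2 scale. Of the 8 mature adipocyte markers, ADIPOQ and LEP had no UMI in cluster 9. LEP had none in all other cells either, and ADIPOQ none in clusters 6, 7, 10, 11, 13, 14 and 15. The summed level of the list was 0.175 and 0.153 UMIs per 10000 UMIs in cluster 9 and 0.251 and 0.241 in all other cells. In the comparison with cluster 7, 6 of 34 target genes tested were called higher and 11 lower, where 29.9% and 26.6% of all genes were. Without TMM, 1 was called higher and 21 lower, beside 17.7% and 42.5% of all genes.

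**Figure D4:**
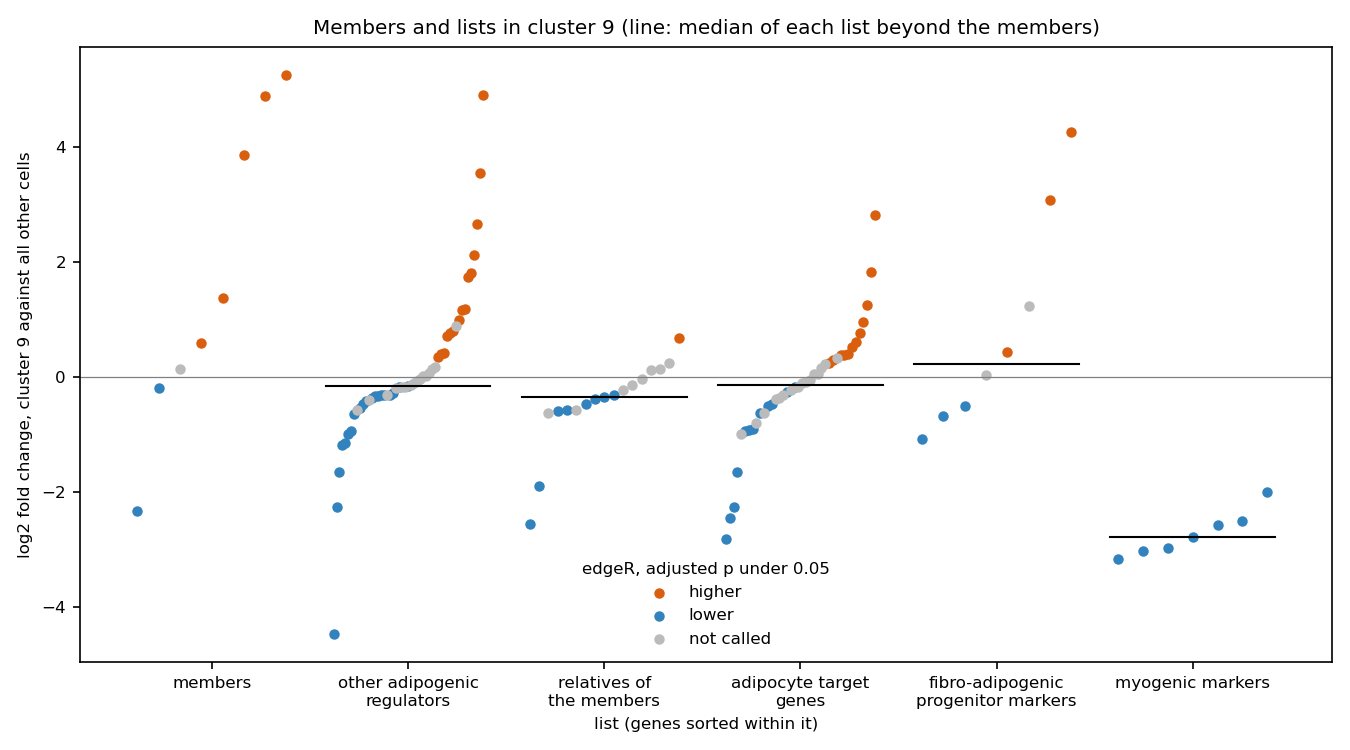
Log2 fold change in cluster 9 against all other cells for the 8 members with a UMI there and for each tested gene of 5 lists, sorted within a list, with genes called higher in orange, lower in blue and not called in grey. The lines are list medians, and all lists but the myogenic markers hold genes on both sides of 0.

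Markers of other cell types were also read in cluster 9. The 7 myogenic markers summed to 2.11 and 1.61 UMIs per 10000 UMIs there, against 12.9 and 12.5 in all other cells. Of 5 endothelial markers tested, PECAM1 was called higher, and the list summed to 0.0282 and 0.0304 UMIs per 10000 UMIs against 0.00997 and 0.00971. Of 5 pericyte and smooth muscle markers tested, CSPG4 was called higher and MCAM and NOTCH3 lower, with sums of 7.13 and 7.58 against 7.41 and 7.25. Of 2 leukocyte markers tested CD14 was called higher, the list summed to 0.0380 and 0.0419 against 0.0214 and 0.0219, and PTPRC was at 0. S100B, the 1 glial marker tested, was called lower, the glial sum was 0.142 and 0.138 against 0.350 and 0.321, and the other 3 glial markers were at 0. The part of such cells in the members' values was not tested.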

How the data were processed

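The authors aligned the reads of both 10x Genomics 3′ v3 libraries to ARS-UCD1.2, counted UMIs and merged them by Cell Ranger 3.0.2 (per the labels and the methods of the study). The deposited counts are whole numbers of UMIs per gene and cell. The authors also deposited an average UMI count per gene and cluster, scaled to a common total and treated here as a score, with log2 fold changes and p-values of their own comparison, which were not used. The averages convert to UMI sums, which gave the cluster of all 19096 cells, and 252240 recomputed pairs of gene and cluster showed 0 differences. A number that follows the barcode names the library, in the order in which the study combined the libraries, and 27 barcodes occur in both libraries.

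UMIs were summed per library and group of cells, and 2 sums were compared with 2 by edgeR 4.0.16 in R 4.3.3 (quasi-likelihood test, TMM, filterByExpr, Benjamini-Hochberg adjustment over all genes tested, called under 0.05). The main fit was also run on simulated sums, which were drawn without the pairing by library of the real sums. No result here rests on that run. Standard errors are the log2 fold change divided by the square root of its F value. The members and lists were chosen with earlier results of these data known. All members are named, and from each list up to 4 called genes with the largest positive and the largest negative log2 fold change in cluster 9 among those with at least 100 UMIs in all cells, and for members with at least 500 UMIs the 3 genes most like them. One gene that this rule names is not reported here.

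Sums of 1 library pair by origin. The ratio between the libraries, per gene on the log2 scale, correlated between each cluster and its complement at 0.167 to 0.669 (median 0.565), and between clusters 9 and 7 at 0.2. The alternatives were DESeq2 1.42.0, no TMM, no filter, the library as a block, 1528 cells with the highest doublet scores (Scrublet in scanpy 1.11.5) left out, cells under 2000 UMIs left out, Louvain clusters made without the members and adipogenic lists (73.12% of all cells kept their deposited cluster; the new cluster 9 held 938 of the 1080 cells of cluster 9 and 1 other), and 1 fit of all 30 sums. Values without 1 library have no test. Depth limits EBF1, CEBPB and KLF15, counted 100, 241 and 70 times. No genome of the deposited build was used here, so no coordinates or sequences are given.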

Additional observations from a re-analysis of the deposited data

How the results depend on the processing

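Of the counts of members called, all kept within 1.5 times the given count under every alternative with these exceptions. In 1 fit of all 30 library sums, 1 member was called lower in cluster 9 than in the other clusters instead of 3, and 16 pairs of member and cluster were called lower instead of 43. The share of all genes called lower in cluster 9 was 17.7% in that fit instead of 27.7%, and of all pairs 12.6% instead of 17.1%. Without TMM, 2 members were called higher in cluster 9 than in cluster 7 instead of 4, beside 17.7% of all genes instead of 29.9%. With the library as a replicate block, 5 members were called higher and 3 lower when cluster 9 was set against the rest, 4 and 1 against cluster 7, 5 and 3 against the 7 myogenic clusters, and 25 pairs were called higher and 56 lower. The shares of all genes in these comparisons were, in the same order, 30.3% and 33.3%, 29.8% and 26.3%, and 33.4% and 32.5%. Of all pairs of gene and cluster, 20.2% and 22.2% were called. The causes were not tested.

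Of the log2 fold changes of members, KLF4 against cluster 7 changed sign, to −0.28 without TMM, where it was not called. EBF2, PPARG and KLF5 were called in the same direction under all alternatives with a test in all 3 comparisons of cluster 9. In cluster 9 against all other cells, PPARG ranged from 3.73 to 4.29, EBF2 from 4.71 to 6.11 and KLF5 from −2.93 to −2.17. KLF15 was called lower under 5 of 8 alternatives. Counts of members have no value without a replicate, since 1 sum a side leaves no test. Cluster 15 gave no value without cells under 2000 UMIs, and clusters 5, 13 and 15 gave none after reclustering.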

Other observations

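In clusters 4, 5 and 8, the satellite cell clusters, the 4377 cells with at least 10000 UMIs, thinned to that number, held 115 cells with a PPARG UMI. Of these, 14.8% (95% exact binomial interval 8.85 to 22.6) also had a UMI of SFRP2, against 3.75% (3.20 to 4.37) of the 4262 cells without PPARG. The counts with SFRP2 were 8 of 61 cells in replicate 1 and 9 of 54 in replicate 2. Cluster 8 held 11 of these 17 cells, and there the shares were 28.2% (15.001 to 44.9) and 5.47% (4.18 to 7.01). In cluster 4 they were 9.30% (2.59 to 22.1) and 3.29% (2.49 to 4.26). In cluster 5 they were 6.06% (0.743 to 20.2) and 3.07% (2.27 to 4.06). Within clusters 4 and 5 the intervals with and without PPARG overlapped. In cluster 9 the shares were 34.8% (29.2 to 40.7) and 26.3% (23.3 to 29.5), and these intervals overlapped too. There 55 of 155 cells with PPARG in replicate 1 and 41 of 121 in replicate 2 had SFRP2. Without PPARG, 98 of 428 and 110 of 363 cells did. With the 8% of cells of highest doublet score left out, an alternative added after the data had been seen, the shares in clusters 4, 5 and 8 were 16.5% (9.92 to 25.1) and 3.81% (3.22 to 4.46). SFRP2 was chosen for this after its values had been seen, no test was run, and cells of 1 library are not replicates.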
